A study of Mus musculus with 8 samples.

Results

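The genes described here encode 38 enzymes that supply nucleotides, serine, glycine, folate one-carbon units, the methyl donor and polyamines. They fall in 7 branches: purine, pyrimidine, deoxynucleotide, serine and glycine, folate one-carbon, methionine cycle and polyamine. Beside synthesis enzymes they include the salvage kinases Tk1 and Dck and the glycine cleavage genes Gldc and Amt. All were chosen by name, and 35 of the 38 were among the 22180 genes read by a probe set with a single gene symbol. Impdh2 and Mat2a were not analysed here, and Pfas was left out because its probe set also carries the symbol of a microRNA gene. For Gart, Rrm2, Dut and Ahcy, which have several probe sets, the one with the highest mean over the 8 arrays stood for the gene.

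Kidneys of E14.5 mouse embryos from 1 litter were measured on 1-colour arrays. The mutant group, Grb2 UB-cKO, is a knockout of Grb2 restricted to the ureteric bud, the epithelium that branches into the collecting ducts, and the control group is wild type, with 4 embryos each. The 2 kidneys of an embryo were pooled, so each array is a separate animal. The RNA is that of the whole organ, in which cells outside the ureteric bud keep Grb2 by design. Of the Cre driver, the floxed allele and the strain the labels say nothing. The values are log2 probe-set values as the authors deposited them, with array medians of 6.61 to 6.72. A difference of 1 on this scale is a 2-fold change.

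Growing tissue makes purine and pyrimidine rings de novo on an activated ribose, phosphoribosyl pyrophosphate (PRPP). The one-carbon units needed for purines and thymidylate come from serine and glycine and are carried on folate, in the cytosol and in mitochondria. Ribonucleotide reductase and thymidylate synthase turn ribonucleotides into DNA precursors, and S-adenosylmethionine supplies methyl groups. Polyamines are made from ornithine and bind nucleic acids. In the embryonic kidney these pathways serve the dividing progenitors, bud tips and stroma.

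Grb2, which encodes the adaptor that joins receptor tyrosine kinases to RAS, stood at 8.2 ± 0.12 in Grb2 UB-cKO and 8.65 ± 0.03 in control kidneys (SD, n = 4 each), a log2 fold change of -0.45 (SE 0.07, adjusted p = 0.0017). Of 12 measured kidney lineage markers 8 were lower, among them Ret, Calb1 and Six2, and 2, Foxd1 and Wt1, were higher. Over all genes 14.3% were called lower and 13.7% higher. The mean of that list was 10.3 to 10.4 in controls and 9.21 to 9.66 in Grb2 UB-cKO. Sex-linked genes also differed between the groups. Averaged over Uty, Kdm5d and Eif2s3y, Y-linked expression was 9.94 to 10.1 in Grb2 UB-cKO embryos and 9.94 in control replicate 3, and the lowest control stood at 4.09. Xist, which silences the second X chromosome of females, stood at 12.79, 12.64 and 12.22 in control replicates 1, 2 and 4 and at 5.39 in control replicate 3. Results are therefore also given from a model that holds this Y-linked mean as a covariate. In that model Grb2 stood at -0.40 and missed the threshold (adjusted p = 0.10). Of the 12 kidney lineage markers 3 were lower and 1 was higher in it, with Six2 among those that missed the threshold. Over all genes 2.76% were lower and 2.85% higher in that model. The fold of that model rests on control replicate 3, the single control with high Y-linked values.

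All 35 measured enzymes had a lower mean in Grb2 UB-cKO kidneys than in controls, where 49.0% of all genes had a negative log2 fold change. By limma with Benjamini-Hochberg adjustment over all genes at a threshold of 0.05, 29 of the 35 fell, none rose and 6 did not pass, against a background of 14.3% of all genes called lower and 13.7% called higher. The 0 of 35 enzymes called higher is also the count at an unadjusted p under 0.05, since none had a positive log2 fold change. In the same 29 genes the highest Grb2 UB-cKO embryo lay below the lowest control, which held for 16.0% of all genes. The median log2 fold change was -0.61, from -1.55 for Gldc to -0.09 for Impdh1, beside a median of 0.0058 over all genes. In RNA of whole kidneys fewer cells of a type and less RNA per cell cannot be told apart. In 18 of the 35 the fall was 0.5 or more on the log2 scale and past the threshold, as in 5.05% of all genes. After centring each array on its median the same number, 29 of 35, fell, against 18.4% of all genes. That centring moved the split of calls over all genes from 3179 lower and 3048 higher to 4073 lower and 2386 higher.

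**Figure D1:**
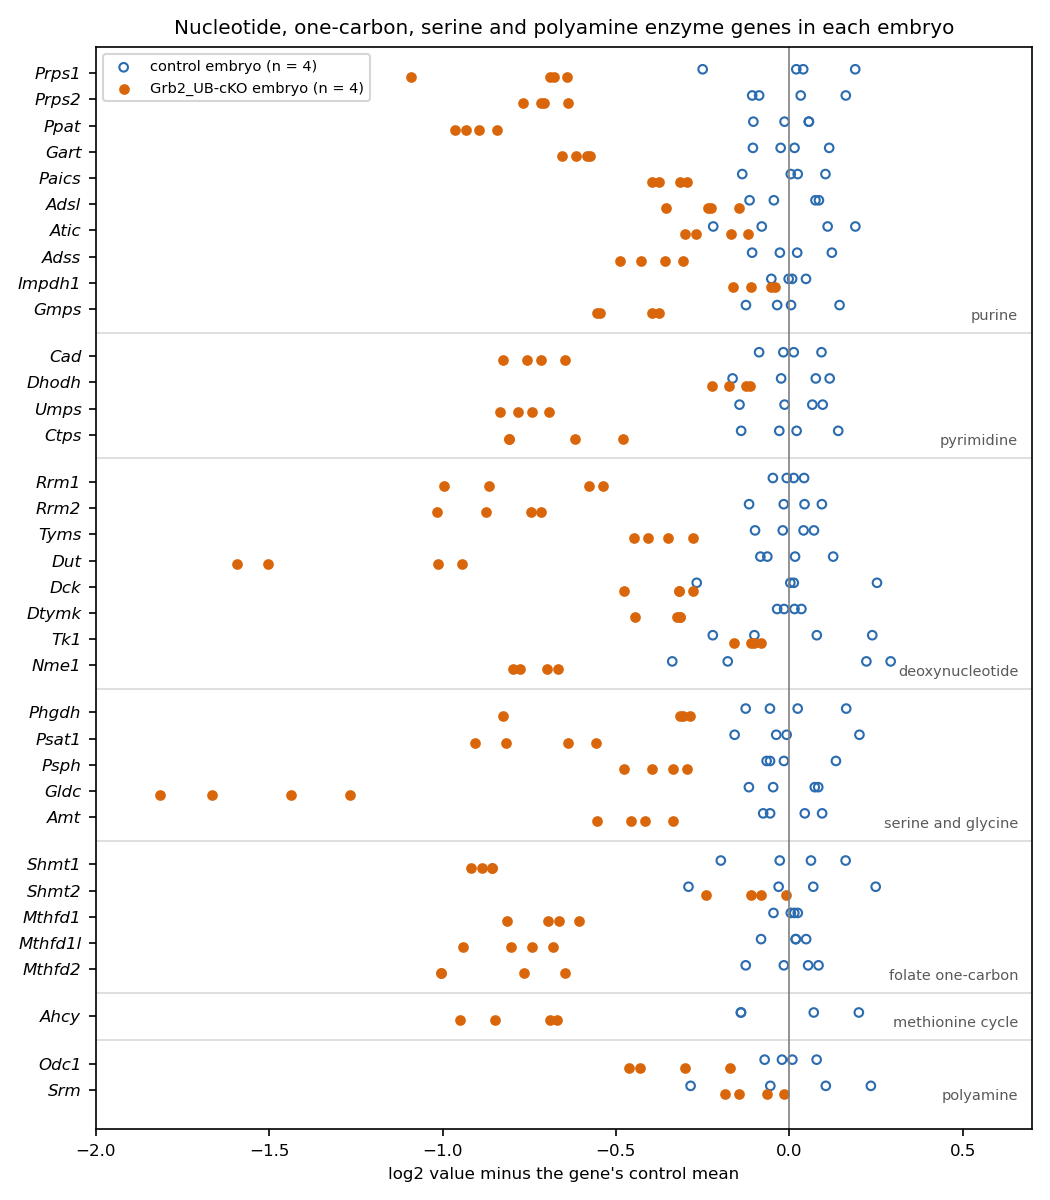
Each row is a gene and each point an embryo, plotted as its log2 value minus the mean of the 4 control embryos, with genes grouped by branch. In 29 of 35 rows the Grb2 UB-cKO points all lie left of the control points, furthest for Gldc and Dut, and in 6 rows (Atic, Impdh1, Dhodh, Tk1, Shmt2 and Srm) the groups overlap.

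Averaged over the 35 enzymes, the Grb2 UB-cKO embryos lay 0.53, 0.51, 0.63 and 0.62 below the control mean in replicates 1 to 4 on the log2 scale. In each of these 4 embryos all 35 genes were below their control means. The controls were not uniform either: averaged over the same genes, control replicate 1 lay at -0.08 and control replicate 4 at 0.095 from the control mean. Control replicate 1 was the lowest control for 20 of the 35 genes and control replicate 4 the highest for 21. For these counts by embryo the share over all genes was not computed. The control SD had a median of 0.194 over the 6 enzymes that did not pass and 0.0959 over the 29 that did. This contrast is partly built in, since the test divides by the spread. The 6 also had small changes, from -0.09 for Impdh1 to -0.22 for Atic, and Impdh1 had a control SD of 0.038.

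In the model with the Y-linked covariate, 17 of the 35 enzymes passed the threshold, all lower, against 2.76% of all genes lower, and all 35 kept a negative log2 fold change. The 12 that lost the call were Prps1, Paics, Adsl, Adss, Gmps, Rrm1, Tyms, Dck, Dtymk, Phgdh, Amt and Odc1. Over the 29 called genes the SE had a median of 0.08 without and 0.126 with the covariate, and the size of change one of 0.71 and 0.65 on the log2 scale. Control replicate 3 lay above every Grb2 UB-cKO embryo for all 35 genes, and was the lowest control for 10 of them. The share of all genes with this order was not computed, so these counts have no background beside them.

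**Figure D2:**
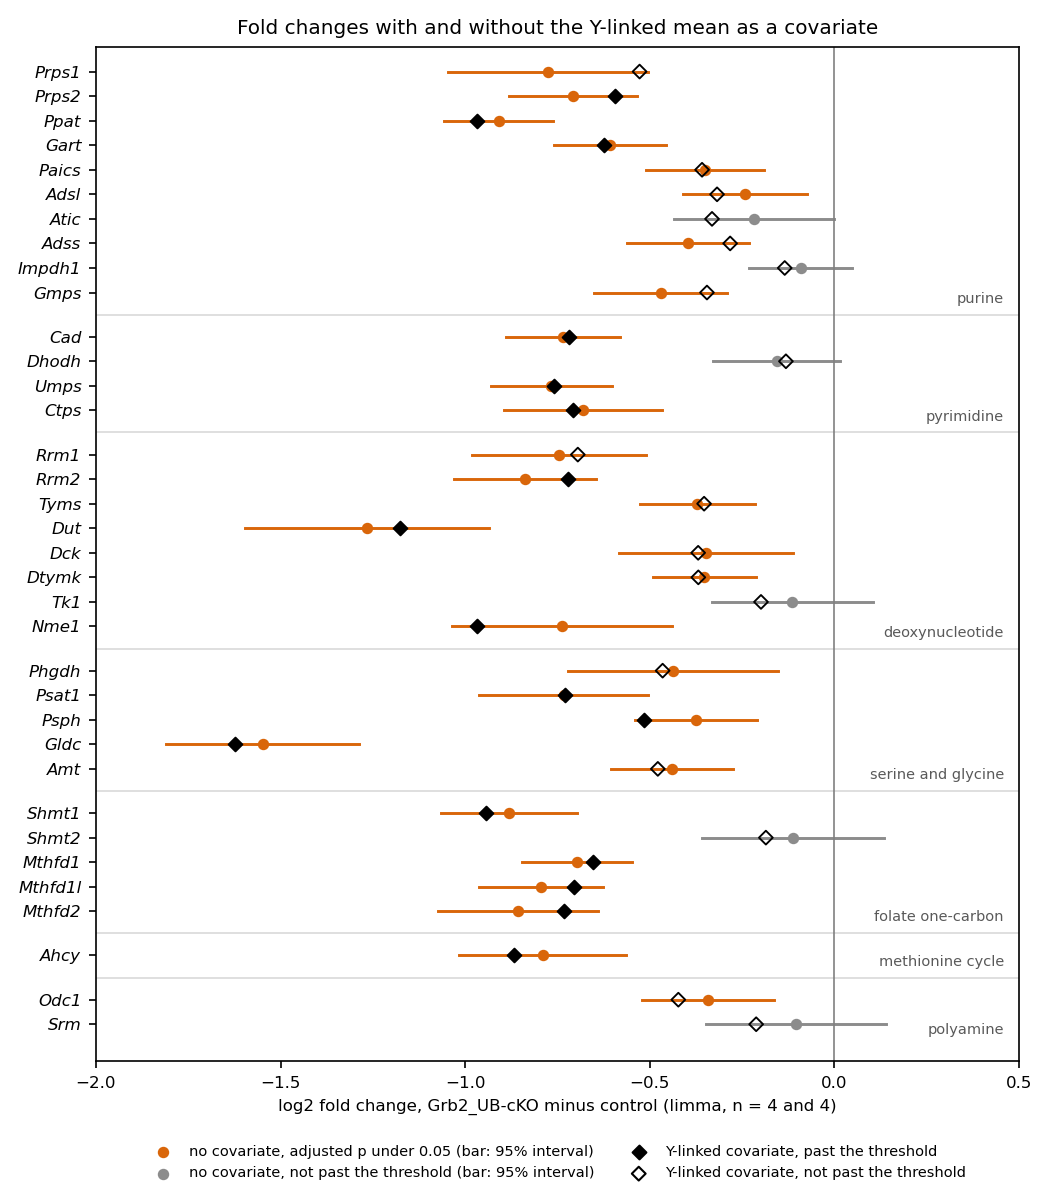
Points are log2 fold changes of Grb2 UB-cKO minus control with 95% intervals from limma on 4 and 4 embryos, by branch, and diamonds are the same fold with the Y-linked covariate. Of the 29 genes called without it, 17 have a filled diamond, past the threshold, and no point or diamond lies above 0.

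Markers of dividing cells moved with these enzymes. Of 15 measured cell cycle genes, which include the MCM helicase genes and Mki67, 14 fell, none rose and 1, Ccna2, did not pass (median -0.50, beside -0.61 for the enzymes). The mean of that list was 11.3 to 11.4 in controls and 10.7 to 10.9 in Grb2 UB-cKO, and 8 of the 15 fell with the Y-linked covariate. Markers of other cell types went the other way: 6 of 8 endothelial genes rose (list mean 9.94 to 10 in controls, 10.3 to 10.5 in Grb2 UB-cKO), as did 4 of 8 erythroid genes (6.51 to 6.97 and 7.27 to 7.97). Over all genes 14.3% fell and 13.7% rose. With the Y-linked covariate 0 of 8 endothelial, 1 of 8 erythroid and 5 of 10 macrophage genes passed, all higher. In that model 2.76% of all genes fell and 2.85% rose. None of 6 adrenal and gonad markers passed by limma, and of 4 neural markers 1 rose, Stmn2, and 1 fell, Elavl4. The part of these shifts in the falls of the enzymes was not tested.

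In purine synthesis 8 of 10 measured genes fell and 2, Atic and Impdh1, did not pass (median -0.43, and -0.35 with the Y-linked covariate). Ppat encodes the amidotransferase of the committed step, which attaches the first nitrogen to PRPP. It stood at 9.76, 9.85, 9.92 and 9.92 in control replicates 1 to 4 and at 9.02, 8.97, 8.90 and 8.93 in Grb2 UB-cKO replicates 1 to 4. The groups lay far apart, and the level in Grb2 UB-cKO was 53.2% of control (log2 fold change -0.91, SE 0.07, adjusted p = 3.85e-05). Prps1 and Prps2 encode the synthetases that make PRPP, and both genes lie on the X chromosome. Prps1 read 8.57, 8.42, 8.13 and 8.40 in controls and 7.69, 7.74, 7.29 and 7.70 in Grb2 UB-cKO, in the same order of replicates, a log2 fold change of -0.78 (SE 0.12, adjusted p = 0.00126). Prps2 read 10.59, 10.46, 10.32 and 10.34 against 9.79, 9.72, 9.71 and 9.66, a log2 fold change of -0.71 (SE 0.08, adjusted p = 0.000235). In both genes control replicate 3, which has the low Xist value, was the lowest control, and still lay above all 4 Grb2 UB-cKO embryos. With the Y-linked covariate Prps1 stood at -0.53 and missed the threshold (adjusted p = 0.119), while Prps2 stood at -0.59 (adjusted p = 0.0314).

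Of the genes further along the ring-building path, Gart, a protein with several of the middle activities including the formyl transfer from folate, fell by 0.61 (SE 0.07). In the Y-linked covariate model its value was -0.62, beside the -0.53 of Prps1 and -0.59 of Prps2. Paics fell by 0.35 (SE 0.07) and Adsl, which releases fumarate, by 0.24 (SE 0.08, adjusted p = 0.0376). Atic, which closes the ring of inosine monophosphate, stood at -0.22 (SE 0.10, adjusted p = 0.132). Its controls ran from 10.84 in replicate 1 to 11.25 in replicate 4 and overlapped the Grb2 UB-cKO values of 10.76 to 10.94. Without control replicate 1 Atic passed the threshold (-0.29, adjusted p = 0.0442). Adsl missed it with an adjusted p of 0.0661, 0.0969 or 0.0908 without control replicate 2, 3 or 4, and of 0.0713, 0.107 or 0.0636 without Grb2 UB-cKO replicate 1, 3 or 4. Of the arms that lead on from inosine monophosphate, Adss (adenylosuccinate synthase, the adenine arm) fell by 0.40 (SE 0.07) and Gmps (guanosine monophosphate synthase) by 0.47 (SE 0.08). Impdh1, a dehydrogenase of the guanine arm, stood at -0.09 (SE 0.06, 95% interval -0.23 to 0.05). Impdh2, a second gene of this step, was not analysed, so the value describes Impdh1 only.

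Ppat and Paics lie on opposite strands, with 276 bases between their annotated start sites in RefSeq on GRCm38.p6. Ppat starts at 76951578 and is read on the minus strand, and Paics starts at 76951302 and is read on the plus strand. By these start sites each gene is read toward the start of the other, so the bases between them lie downstream of both. Their promoter windows do not overlap. The windows of Ppat and Prps2 are shown as those of enzymes with large falls that hold an E-box or E2F match, and that of Paics as Ppat's neighbour. Each window holds 250 bases before and 50 after a start site, 5′ to 3′ on the gene's strand, with matches to the E-box CACGTG or to the E2F motifs TTTGGCGC and TTTCCCGC, on either strand, in capitals. The windows are chr5:76951529-76951828 (minus strand) for Ppat, chr5:76951052-76951351 (plus strand) for Paics and chrX:167382700-167382999 (minus strand) for Prps2. Ppat holds 2 E2F matches, read on the opposite strand, at 211 and 158 bases before its start site. Paics holds an E-box 203 bases before its own start site, and Prps2 an E2F match just after the start site. The neighbours' falls were 0.91 for Ppat and 0.35 for Paics on the log2 scale, a comparison chosen after the values were seen and not tested.
Ppat: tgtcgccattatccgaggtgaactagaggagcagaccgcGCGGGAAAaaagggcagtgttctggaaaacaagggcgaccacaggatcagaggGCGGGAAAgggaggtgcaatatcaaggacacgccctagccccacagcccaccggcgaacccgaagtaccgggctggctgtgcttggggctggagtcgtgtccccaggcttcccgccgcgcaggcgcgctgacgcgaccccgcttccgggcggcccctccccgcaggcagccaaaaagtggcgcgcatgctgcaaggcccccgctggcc
Paics: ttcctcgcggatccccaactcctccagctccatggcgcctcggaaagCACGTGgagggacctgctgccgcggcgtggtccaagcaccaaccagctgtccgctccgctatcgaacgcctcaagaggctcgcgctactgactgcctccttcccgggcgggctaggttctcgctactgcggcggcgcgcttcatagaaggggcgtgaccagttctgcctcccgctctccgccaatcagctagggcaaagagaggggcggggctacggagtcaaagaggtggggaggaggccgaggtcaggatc
Prps2: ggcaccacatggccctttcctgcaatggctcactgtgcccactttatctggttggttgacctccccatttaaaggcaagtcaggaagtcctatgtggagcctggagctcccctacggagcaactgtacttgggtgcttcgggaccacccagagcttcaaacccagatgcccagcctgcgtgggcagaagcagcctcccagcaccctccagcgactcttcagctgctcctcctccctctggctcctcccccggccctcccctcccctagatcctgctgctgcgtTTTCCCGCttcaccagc

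In pyrimidine synthesis both the first and the last steps fell. Here 3 of 4 genes fell (median -0.71), and Dhodh did not pass. Cad encodes the large cytosolic protein that starts the ring, and stood at 10.03, 10.13, 10.10 and 10.21 in controls and 9.36, 9.47, 9.29 and 9.40 in Grb2 UB-cKO (log2 fold change -0.73, SE 0.07, adjusted p = 0.000124). Umps, which makes uridine monophosphate, read 9.24, 9.45, 9.37 and 9.48 against 8.69, 8.64, 8.55 and 8.60 (-0.77, SE 0.07, adjusted p = 0.000132). Ctps, which makes cytidine triphosphate, read 8.73, 8.62, 8.78 and 8.90 against 8.14, 8.28, 7.95 and 7.95 (-0.68, SE 0.10, adjusted p = 0.000716). In all 3 genes the groups were separate, and all 3 passed with the Y-linked covariate. Dhodh, the mitochondrial dehydrogenase between Cad and Umps, stood at -0.16 (SE 0.08, 95% interval -0.33 to 0.02, adjusted p = 0.171), with control replicate 1 at 7.71 inside the Grb2 UB-cKO range of 7.65 to 7.76.

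Deoxynucleotide genes fell in 7 of 8 cases (median -0.55), and the kinase gene Tk1 did not pass. Dut encodes the enzyme that keeps uracil out of DNA by breaking down deoxyuridine triphosphate. It stood at 9.71, 9.79, 9.69 and 9.90 in controls and at 8.83, 8.76, 8.27 and 8.18 in Grb2 UB-cKO, a fall to 41.6% of control (log2 fold change -1.27, SE 0.15, adjusted p = 0.000291). All 4 lay below the lowest control, and Grb2 UB-cKO replicates 3 and 4 lay below replicates 1 and 2. The nephron progenitor marker Six2, at 10.22, 10.14, 8.37 and 8.44, was also lower in replicates 3 and 4 than in 1 and 2. The other kidney lineage markers were mixed. Calb1, at 8.75, 8.55, 7.40 and 7.18, split in the same way. So did Eya1, at 11.46, 11.92, 10.49 and 10.5, Pax2, at 9.68, 9.83, 9.22 and 9.5, and Ret, at 7.71, 7.14, 6.96 and 6.94. Cited1, at 8.37, 7.98, 8.17 and 7.74, and Wt1, at 10.62, 10.90, 10.78 and 10.95, did not. Neither did Pax8, Foxd1, Gata3, Cdh1 and Cdh16. The part of these markers in the Dut values was not tested. Rrm1 and Rrm2 are the large and small subunits of ribonucleotide reductase. Rrm1 read 11.69, 11.72, 11.63 and 11.67 against 11.10, 11.14, 10.81 and 10.68 (-0.75, SE 0.11), and Rrm2 read 10.53, 10.64, 10.43 and 10.59 against 9.83, 9.80, 9.67 and 9.53 (-0.84, SE 0.09). Replicates 3 and 4 were the lower pair in these genes too. Among the Grb2 UB-cKO embryos replicate 3 was the lowest for 14 of the 35 enzymes and replicate 4 for 12. For these counts the share over all genes was not computed. Rrm1 missed the threshold narrowly with the Y-linked covariate (-0.69, adjusted p = 0.0567), and Rrm2 passed (-0.72, adjusted p = 0.0239).

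The remaining genes of DNA precursor supply fell less, apart from Nme1. Nme1, a nucleoside diphosphate kinase gene, stood at 8.18 to 8.81 in controls and 7.72 to 7.85 in Grb2 UB-cKO, and fell by 0.74 (SE 0.13, adjusted p = 0.0027). Its neighbour and close copy Nme2 shares a probe set with it that was not used, so signal of the copies could not be separated with certainty. Tyms, thymidylate synthase, fell by 0.37 (SE 0.07), Dtymk, the kinase of its product, by 0.35 (SE 0.06), and Dck, which salvages deoxycytidine, by 0.35 (SE 0.11, adjusted p = 0.0336). Dck missed the threshold without control replicates 2, 3 or 4 (adjusted p = 0.0741, 0.0710 and 0.0719) and without Grb2 UB-cKO replicates 1, 3 or 4 (0.0595, 0.093 and 0.057). Tk1, which salvages thymidine, read 9.58, 9.70, 9.88 and 10.04 in controls and 9.69, 9.70, 9.72 and 9.64 in Grb2 UB-cKO (-0.11, SE 0.10, 95% interval -0.33 to 0.11). The Grb2 UB-cKO embryos all lay within the control range.

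By the same choice the promoter windows of Nme1 and Tyms are shown, which had the largest falls among the 5 enzymes with an E-box. The E-box lies 18 and 61 bases before the start site. They are chr11:93968223-93968522 and chr5:30073576-30073875, both on the minus strand of GRCm38.p6, from RefSeq, with the E-box in capitals. Nme1 has a further annotated start site whose window holds an E-box as well.
Nme1: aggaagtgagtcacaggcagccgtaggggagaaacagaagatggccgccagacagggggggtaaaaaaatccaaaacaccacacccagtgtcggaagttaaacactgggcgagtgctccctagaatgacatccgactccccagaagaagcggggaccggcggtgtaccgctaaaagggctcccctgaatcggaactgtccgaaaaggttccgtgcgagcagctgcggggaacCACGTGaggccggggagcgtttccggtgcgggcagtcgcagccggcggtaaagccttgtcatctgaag
Tyms: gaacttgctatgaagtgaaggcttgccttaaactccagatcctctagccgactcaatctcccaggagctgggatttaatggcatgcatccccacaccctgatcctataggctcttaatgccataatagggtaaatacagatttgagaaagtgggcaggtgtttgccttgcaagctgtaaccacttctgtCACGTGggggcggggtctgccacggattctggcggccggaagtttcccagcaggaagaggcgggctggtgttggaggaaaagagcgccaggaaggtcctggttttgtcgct

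Over the set, 33 of the 35 measured enzymes had a promoter window in the RefSeq table. An E-box stood in 5 of the 33 (Atic, Dtymk, Nme1, Paics and Tyms, 15.2%, against 8.09% of all genes with a window), and an E2F match in 2 (Ppat and Prps2, 6.06% against 1.8%). The CCAAT box, the letters CCAAT, stood in 16 of 33 (48.5% against 41.1%). The amino acid response element TGATGNAAN, bound by ATF4, stood in 1, Prps1 (3.03% against 4.5%). The letters were searched on both strands, no match overlapped another motif in the windows printed, and a match describes the window only. The genes with the largest falls, Gldc and Dut, held no E-box or E2F match in these windows.

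Serine and glycine genes all fell, 5 of 5 (median -0.44), and the largest fall of the set was here. Gldc encodes the decarboxylase of the mitochondrial glycine cleavage system, which frees a one-carbon unit from glycine. It stood at 9.39, 9.32, 9.51 and 9.52 in controls and 8.0, 8.17, 7.77 and 7.62 in Grb2 UB-cKO. The groups were more than 1 apart on the log2 scale, a 2.92-fold fall (log2 fold change -1.55, SE 0.12, 95% interval -1.81 to -1.29, adjusted p = 4.33e-05). Amt, the aminomethyltransferase of the same complex, read 8.06, 8.04, 8.16 and 8.21 against 7.70, 7.56, 7.78 and 7.66 (-0.44, SE 0.07, adjusted p = 0.00182). With the Y-linked covariate Gldc stood at -1.62 (adjusted p = 0.00649) and Amt at -0.48 (adjusted p = 0.0615).

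Phgdh, Psat1 and Psph encode the 3 steps from the glycolytic intermediate phosphoglycerate to serine. Psat1, the aminotransferase, read 9.77, 9.89, 9.92 and 10.13 against 9.29, 9.37, 9.02 and 9.11, and fell by 0.73 (SE 0.10, adjusted p = 0.000695). Psph, the phosphatase, fell by 0.37 (SE 0.07, adjusted p = 0.00415). Phgdh, the entry dehydrogenase, fell by 0.44 (SE 0.13, adjusted p = 0.0282), and its Grb2 UB-cKO values held 1 low embryo: replicate 1 stood at 8.46 and the others at 8.97 to 9.0. All 4 lay below the lowest control, at 9.16. Phgdh missed the threshold without control replicate 1, 3 or 4 (adjusted p = 0.0511, 0.0614 and 0.0716).

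Folate enzymes fell in both compartments, with 1 exception. In this branch 4 of 5 genes fell (median -0.79), and Shmt2 did not pass. Shmt1, the cytosolic serine hydroxymethyltransferase, which moves a carbon from serine to folate, stood at 8.96, 9.13, 9.22 and 9.32 in controls and 8.30, 8.27, 8.30 and 8.24 in Grb2 UB-cKO. The Grb2 UB-cKO embryos were nearly alike and all below the controls (log2 fold change -0.88, SE 0.08, adjusted p = 0.000121). Shmt2, its mitochondrial counterpart, read 10.76, 11.02, 11.12 and 11.30 against 11.04, 10.81, 10.94 and 10.97 (-0.11, SE 0.11, 95% interval -0.36 to 0.14). The 4 Grb2 UB-cKO values lay within the control range.

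Mthfd2 and Mthfd1l carry the mitochondrial carbon on to formate, and Mthfd1 takes formate up into cytosolic folate. Mthfd2, the dehydrogenase, read 9.26, 9.16, 9.05 and 9.23 against 8.41, 8.53, 8.17 and 8.17 (-0.86, SE 0.10, adjusted p = 0.000266). Mthfd1l, the formate-releasing synthetase, read 8.94, 8.97, 8.84 and 8.94 against 8.24, 8.18, 7.98 and 8.12 (-0.79, SE 0.08, adjusted p = 0.000125). Mthfd1 stood at 9.66 to 9.73 in controls and 8.89 to 9.10 in Grb2 UB-cKO (-0.70, SE 0.07). All 3 had separate groups and passed with the Y-linked covariate, as did Shmt1.

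In the methionine cycle Ahcy was the 1 gene measured. It encodes the hydrolase that clears S-adenosylhomocysteine, the product of methylation. It read 9.59, 9.59, 9.80 and 9.93 in controls and 9.04, 9.06, 8.78 and 8.88 in Grb2 UB-cKO, groups that did not overlap (-0.79, SE 0.10, adjusted p = 0.00047, and -0.87 with the Y-linked covariate). In polyamine synthesis 1 of 2 genes fell (median -0.22). Odc1, ornithine decarboxylase, the rate-limiting enzyme, read 10.29, 10.34, 10.44 and 10.37 against 10.06, 10.19, 9.90 and 9.93 (-0.34, SE 0.08, adjusted p = 0.00995), and its adjusted p was 0.101 with the Y-linked covariate. Srm, spermidine synthase, read 11.29, 11.52, 11.68 and 11.81 against 11.56, 11.39, 11.51 and 11.43 (-0.10, SE 0.11, 95% interval -0.35 to 0.14). The Srm values of Grb2 UB-cKO all lay within the wide control range.

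Where a gene has several probe sets, the dim ones moved less or varied more than the one used. For Ahcy the probe set used fell by 0.79 and the other stood at -0.19, and for Gart the one used fell by 0.61 and the others stood at -0.12 and -0.13. For Dut the values were -1.27 and -0.88, and for Rrm2 -0.84 and -0.70. All were negative.

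Whether enzymes of the same step changed differently was tested for 6 pairs of related genes, on the within-array difference of their log2 values, with a two-sided exact permutation test over 70 assignments of embryos and Benjamini-Hochberg adjustment over the 6 pairs. The smallest p this design allows is 0.0286. Shmt1 minus Shmt2 stood at -1.80, -1.89, -1.90 and -1.98 in controls and -2.73, -2.54, -2.64 and -2.74 in Grb2 UB-cKO, a change of -0.77 (95% interval -0.92 to -0.63). The signal of the cytosolic gene was thus lowered more than that of the mitochondrial one in every Grb2 UB-cKO embryo (exact permutation p = 0.0286, adjusted 0.0429). As in all 6 pairs, the 2 signals come from different probe sets, and whether these respond alike to a change was not tested. Ctps minus Ctps2, a second X-linked synthetase gene, changed by -0.85 (95% interval -1.13 to -0.57), with Ctps2 itself at 0.17 (adjusted p = 0.139). Rrm2 minus Rrm2b, the subunit gene induced by p53, changed by -0.72 (95% interval -1.08 to -0.35), with Rrm2b at -0.12. Mthfd2 minus Mthfd2l changed by -0.35 (95% interval -0.61 to -0.10), and both genes fell. These 3 pairs had the same exact permutation p of 0.0286 (adjusted 0.0429) and groups without overlap. At this smallest p a pair passed after adjustment only because Shmt1 minus Shmt2 and these pairs reached it together. The first gene of each pair was among the enzymes chosen with earlier results of these data known. How often other gene pairs separate in this way was not computed.

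The other 2 pairs gave no difference past the threshold. Prps1 minus Prps2 changed by -0.07 (95% interval -0.36 to 0.22, exact permutation p = 0.686), a value that turned to 0.034 without Grb2 UB-cKO replicate 3 and to 0.066 with the Y-linked covariate. Tk1 minus Tk2 changed by 0.12 (95% interval 0.01 to 0.22, exact permutation p = 0.0857, adjusted 0.103), with the mitochondrial Tk2 at -0.23.

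**Figure D3:**
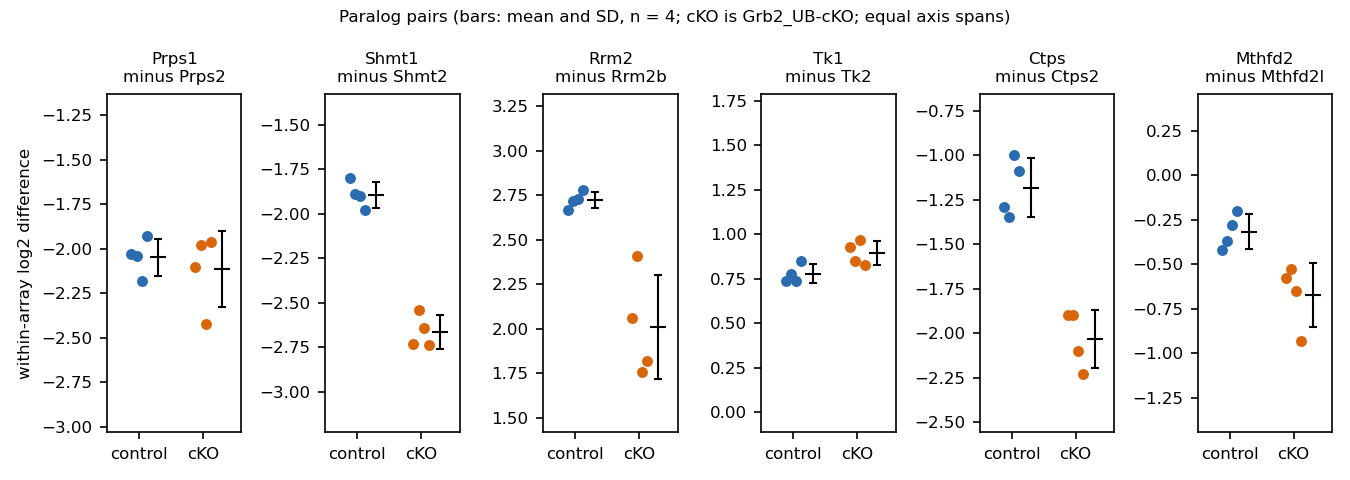
Each panel plots, for 1 pair of related genes, the within-array log2 difference of the first minus the second in the 4 control and 4 Grb2 UB-cKO (cKO) embryos, with mean and SD, over axes of equal span. The groups are separate for Shmt1 minus Shmt2, Rrm2 minus Rrm2b, Ctps minus Ctps2 and Mthfd2 minus Mthfd2l, and overlap for the pairs of Prps and Tk genes.

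A further list of 91 genes of the same pathways holds genes for salvage, breakdown, transport and regulation. It also holds some synthesis genes, such as Ctps2, Mthfd2l and Adssl1, so it does not separate synthesis from other roles. Of its 91 genes 77 were measured. Of these, 15 fell (19.5%), 9 rose and 53 did not pass (median -0.06), beside 14.3% lower and 13.7% higher over all genes. After centring each array on its median 26 of the 77 fell and 8 rose, against 18.4% of all genes lower and 10.8% higher. Without control replicate 1, 20 of the 77 fell, where 2843 of the 22180 genes did. With quantile normalization 18 fell, where 3321 of all genes did. The count of these genes that fell thus depended on the setting. With the Y-linked covariate 3 fell and 2 rose, against 2.76% and 2.85% of all genes.

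Among purine genes 4 of 14 fell and 1 rose. Adk, adenosine kinase, fell by 0.57 (SE 0.07, adjusted p = 0.000445) and Hprt, the X-linked salvage enzyme for hypoxanthine and guanine, by 0.51 (SE 0.08, adjusted p = 0.00114). Prpsap2, a PRPP synthetase-associated protein gene, fell by 0.26 (SE 0.07). Adssl1, a paralog of Adss known from muscle, was the remaining one that fell, by 0.41 with overlapping groups, and Ampd3, an AMP deaminase gene, rose by 0.37; both were named after their values were seen. Adssl1 missed the threshold without control replicate 1, 2 or 4 (adjusted p = 0.0579, 0.0829 and 0.0718) or Grb2 UB-cKO replicate 1 or 4 (0.0739 and 0.0713). Ampd3 missed it without control replicate 1 or 3 (0.0556 and 0.0519) or Grb2 UB-cKO replicate 1 or 3 (0.0536 and 0.0585). Among pyrimidine genes 1 of 11 fell and 3 rose. Uck2, which salvages uridine and cytidine, fell by 0.59 (SE 0.07, adjusted p = 0.000291), while Dpyd, the first enzyme of pyrimidine breakdown, rose by 0.58 (SE 0.09, adjusted p = 0.00144) and Uprt by 0.32 (SE 0.08). Cda, cytidine deaminase, rose by 0.50, was named after its value was seen, and missed the threshold without control replicate 1 or 2 (adjusted p = 0.0690 and 0.0719) or Grb2 UB-cKO replicate 3 or 4 (0.0646 and 0.0554). Dpyd stood at 7.10 to 7.43 in controls and 7.73 to 8.0 in Grb2 UB-cKO, and at 0.80 with the Y-linked covariate (adjusted p = 0.0141). Of deoxynucleotide genes 1 of 8 fell, Dctd, deoxycytidylate deaminase, by 0.39 (SE 0.07).

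In the serine and glycine list 1 of 6 fell and 2 rose. Dld, the shared dehydrogenase subunit of glycine cleavage and of the pyruvate and oxoglutarate complexes, fell by 0.48 (SE 0.09, adjusted p = 0.0027). Srr, serine racemase, stood at 9.64 to 9.74 in controls and 10.23 to 10.42 in Grb2 UB-cKO, and rose by 0.62 (SE 0.07, adjusted p = 0.000221). Sardh, sarcosine dehydrogenase, rose by 0.51 (SE 0.11). Folate genes fell in 2 of 13 cases, Mthfd2l by 0.50 (SE 0.09) and Ggh, which trims folate polyglutamate, by 0.32 (SE 0.08). Folr2, a folate receptor gene known from macrophages, rose by 0.27 (SE 0.08, adjusted p = 0.0373), and missed the threshold after centring on array medians (adjusted p = 0.0864) and without control replicate 1, 2 or 4 (0.0515, 0.0789 and 0.0806) or Grb2 UB-cKO replicate 2, 3 or 4 (0.0527, 0.0882 and 0.0892). Of macrophage markers 8 of 10 rose, with a list mean of 7.44 to 7.67 in controls and 8.42 to 8.77 in Grb2 UB-cKO, and their part in the Folr2 value was not tested.

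Methionine cycle genes fell in 3 of 12 cases, which were Mtap, which recycles the by-product of polyamine synthesis, by 0.31, Ahcyl1 by 0.30 and Mtrr by 0.29. In the polyamine list 3 of 13 fell and 2 rose. Arg2, the arginase that yields ornithine, stood at 7.96, 8.33, 8.5 and 8.88 in controls and 7.24, 7.12, 7.36 and 7.43 in Grb2 UB-cKO. The controls were spread wide and all lay above the Grb2 UB-cKO embryos (-1.13, SE 0.17, adjusted p = 0.000961). Azin1, which protects ornithine decarboxylase from antizyme, fell by 0.64 (SE 0.09), and Eif5a, the translation factor that carries the spermidine-derived residue hypusine, by 0.52 (SE 0.08). The 2 that rose were Sat1, which acetylates polyamines for breakdown, by 0.46 (adjusted p = 0.0016), and Azin2 by 0.43 (adjusted p = 0.00596), both named after their values were seen.

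Of the further genes named here, Adk, Uck2, Dpyd, Srr and Arg2 passed with the Y-linked covariate, at adjusted p-values of 0.0378, 0.0307, 0.0141, 0.021 and 0.0418.

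**Figure D4:**
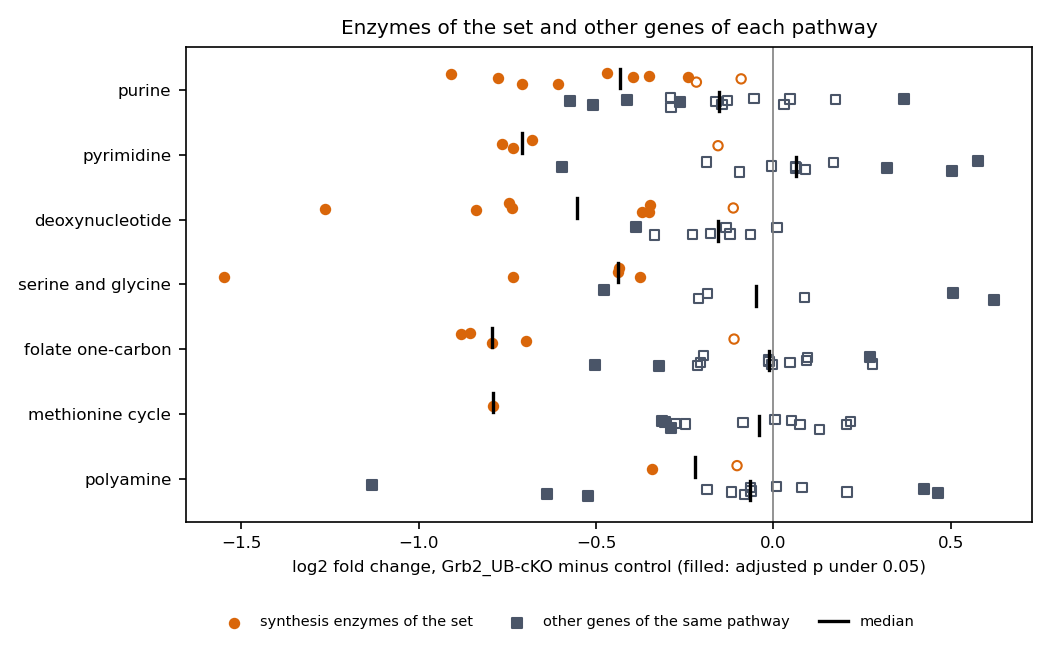
Log2 fold changes of Grb2 UB-cKO minus control by branch, with circles for the 35 measured enzymes, squares for 77 other genes of the same pathways, filled symbols past an adjusted p of 0.05 and black bars for medians. The enzymes all lie below 0 in each branch, while the other genes lie on both sides, with Arg2 lowest at -1.13 and Srr highest at 0.62.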

How the data were processed

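Whole-kidney RNA of 4 Grb2 UB-cKO and 4 control embryos was compared. Per the labels' protocols, 200 ng of RNA per embryo was amplified (Ambion WT Kit) and biotin-labelled. The authors deposited log2 probe-set values for 41345 probe sets. Per the submitters' processing notes the Transcriptome Analysis Console was used; no source used here gives the background correction, summarization or normalization. That the scale is log2 was inferred from a range of 1.25 to 14.08. No value was transformed again, no detection calls or batch records were used, and the number of arrays limits the precision.

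Gene symbols came from GEO's platform annotation and were updated by Entrez identifier to the GRCm38.p6 RefSeq table (23328 of 23521 with 1 symbol; 1814 had several and 16010 none). The probe set of highest mean stood for a gene, which left 22180 genes. Groups were compared in limma 3.58.1 (R 4.3.3) on all 8 arrays, with Benjamini-Hochberg adjustment over all genes and a threshold of 0.05; adjusted p-values come from this model unless another test is named. Replicate numbers follow record order and pair nothing. On simulated data for 22180 genes with 200 changed in each of 10 draws the model recovered 52.8% of log2 changes of 0.5 and 89.7% of changes of 1. Far more genes were called in the real data, so these shares do not carry over to it.

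The enzymes, branches and lists were chosen with earlier results of these data known, so no list was tested. Named were all enzymes, with values in every embryo for the 3 largest changes of a branch and for paired genes, and the up to 3 further genes of smallest p per pathway. Promoters shown are those of the 4 largest changes among enzymes with an E-box or E2F match, and Paics was added as Ppat's neighbour after its value was seen. As alternatives, each embryo was left out in turn, a Y-linked covariate, array weights or a robust trended variance was added, probe sets of a gene were averaged, the dimmest 25% of genes were dropped, arrays were quantile-normalized or centred on their medians, and a threshold of 0.01 or a minimum change of 0.5 was set.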

Additional observations from a re-analysis of the deposited data

Results flagged for a closer look

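In 6 of 122 groups of 4 embryos tested, 1 embryo lay far from the other 3 by Dixon's criterion, where chance gives about 1 in 20 groups. All 6 were among the Grb2 UB-cKO embryos. Prps1 was low in replicate 3, at 7.29 against 7.69 to 7.74 in the others, and Dctd was low in the same embryo, at 9.77 against 9.94 to 9.96. Phgdh was low in replicate 1, at 8.46 against 8.97 to 9.0, while Eif5a was high in that embryo, at 9.66 against 9.41 to 9.43. Dtymk was low in replicate 4, at 10.2 (10.16 to 2 decimals) against 10.28 to 10.29, as was Prpsap2, at 9.5 against 9.62 to 9.64. The 6 values came from 3 embryos, replicates 1, 3 and 4, and each lay below every control value of its gene.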

How the results depend on the processing

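No enzyme changed direction under any of the 15 alternatives fitted. Between 26 and 29 of the 35 enzymes fell when each embryo was left out in turn, 29 under each change of normalization, filter, probe sets, spread or weights, and 26 at a threshold of 0.01 (9.06% of all genes lower). Asking also for a change of 0.5 on the log2 scale left 18, and the Y-linked covariate left 17. The median of the enzymes was -0.68 after centring on array medians, -0.47 with the mean of probe sets and -0.53 with the Y-linked covariate. With that covariate the purine median was -0.35 and the folate median -0.71. The methionine cycle value, from Ahcy alone, was -0.49 with the mean of probe sets. Of the further pathway genes, 14 to 20 fell and 6 to 9 rose when each embryo was left out, 26 fell after centring on array medians, and with the Y-linked covariate 3 fell and 2 rose. Over all genes the median fold moved by -0.067 (log2) with centring on array medians and by less with the other scalings. No paired analysis was made, since each array is a separate embryo and the labels pair no mutant with a control. Ctps minus Ctps2 changed by -1.04 with the Y-linked covariate. With 4 embryos per group small changes can be missed. The 52.8% of changes of 0.5 recovered in the simulation does not give the share missed here, since far more genes were called in the real data.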
